A study of Rattus norvegicus with 24 samples.

Results

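The NR4A and EGR transcription factors were examined in the nucleus accumbens (NAc) of rats 2 h after an injection of methamphetamine (METH) or saline that followed an earlier injection of either. The 7 members are Nr4a1, Nr4a2, Nr4a3, Egr1, Egr2, Egr3 and Egr4, each taken as the probe that the array annotation gives to that symbol. Each had 1 probe among the 13337 named genes, and 5 of the 7 were bright enough to be tested. The animals were male Sprague-Dawley rats, pretreated with saline or 10 mg/kg METH and challenged about a month afterwards with saline or 2.5 mg/kg METH. The 4 groups were MM (METH then METH, 7 arrays), MS (METH then saline, 7 arrays), SM (saline then METH, 6 arrays) and SS (saline at both injections, 4 arrays). Each array was a 1-colour Illumina BeadChip, on which beads carrying oligonucleotides report a transcript by their brightness. The samples are labelled NAc in one field and striatal in another, and they do not say whether an array holds 1 rat. The study gives rats as the unit of its arrays, at a number per group that most groups here do not have, so the p-values measure the spread between these samples, which may be technical. The effect of the METH challenge was read as MM against MS in METH-pretreated rats and as SM against SS in saline-pretreated rats, and the 2 effects were then compared.

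NR4A proteins are orphan nuclear receptors that act without a known physiological ligand, and EGR proteins are zinc-finger transcription factors that bind GC-rich DNA. Both families are immediate early genes, which means that they are transcribed within minutes to hours of neuronal activity without prior protein synthesis. In striatal neurons they are known to respond to dopamine receptor stimulation through cAMP, CREB and MAP kinase signalling, and Nr4a2 is also known for its role in midbrain dopamine neurons and as a marker of claustrum and deep cortical neurons.

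RefSeq promoter windows on GRCr8, from 250 bases before to 50 bases after the transcription start, were found for 5 of the 7 members. Those of the 4 tested members with a window are printed because the deviations of these members are compared with each other. Each runs 5′ to 3′ on the strand of its gene, Nr4a2 on chr3:62104838-62105137 (minus), Egr1 on chr18:26736828-26737127 (plus), Egr2 on chr20:21054392-21054691 (minus) and Egr4 on chr4:119607768-119608067 (minus). Capitals mark matches, on either strand, to the CRE half-site TGACG, which a gene's strand may show reversed and complemented as CGTCA, and to the CArG box, the core of the serum response element.
Nr4a2: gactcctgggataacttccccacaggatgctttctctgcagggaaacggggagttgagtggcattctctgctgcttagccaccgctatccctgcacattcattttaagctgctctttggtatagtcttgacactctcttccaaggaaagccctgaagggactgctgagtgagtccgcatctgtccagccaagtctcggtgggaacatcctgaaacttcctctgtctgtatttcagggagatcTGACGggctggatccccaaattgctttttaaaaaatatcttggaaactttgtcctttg
Egr1: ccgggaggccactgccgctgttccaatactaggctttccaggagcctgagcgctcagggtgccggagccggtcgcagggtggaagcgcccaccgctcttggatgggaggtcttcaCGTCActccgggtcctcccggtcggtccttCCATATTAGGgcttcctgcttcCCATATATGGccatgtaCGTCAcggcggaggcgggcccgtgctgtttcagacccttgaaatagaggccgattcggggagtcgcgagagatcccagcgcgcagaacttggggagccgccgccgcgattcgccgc
Egr2: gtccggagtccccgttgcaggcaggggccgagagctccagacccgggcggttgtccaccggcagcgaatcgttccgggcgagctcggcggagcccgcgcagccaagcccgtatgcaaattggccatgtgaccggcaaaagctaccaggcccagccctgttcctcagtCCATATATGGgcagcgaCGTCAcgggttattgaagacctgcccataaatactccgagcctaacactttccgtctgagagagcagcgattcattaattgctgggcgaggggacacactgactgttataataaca
Egr4: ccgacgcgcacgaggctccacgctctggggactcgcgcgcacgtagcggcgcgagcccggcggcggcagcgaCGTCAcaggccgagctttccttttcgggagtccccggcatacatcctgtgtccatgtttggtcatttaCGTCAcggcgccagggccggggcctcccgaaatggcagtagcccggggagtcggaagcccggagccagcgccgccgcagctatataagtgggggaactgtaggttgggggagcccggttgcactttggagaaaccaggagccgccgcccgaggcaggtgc
Egr1 and Egr2 carried the same CArG box at bases -83 to -74 and a CRE half-site at bases -66 to -62, counted from the start site. Egr1 held a further CArG box at -105 to -96 and a further half-site at -135 to -131. Egr4 had half-sites at -178 to -174 and -110 to -106, and Nr4a2 had 1 at -8 to -4. Nr4a1, whose window is on chr7:134259888-134260187 (plus), had 4 half-sites and 1 EGR site (GCGTGGGCG or GCGGGGGCG). A half-site was present in 21.2% of all 33469 windows, a CArG box in 1.64% and an EGR site in 3.2%. No member window matched the full CRE TGACGTCA, which contains the half-site (1.83% of all windows), the NR4A monomer site AAAGGTCA (1.43%) or the AP-1 site TGACTCA or TGAGTCA (4.63%). These matches describe the letters of the windows only.

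The SS arrays differed from the other 3 groups in marker genes of regions and cell types, and each comparison with SS carries this difference. SS is also the only group that received no METH, so METH exposure and a difference in the tissue taken cannot be told apart. All 15 measured markers of medium spiny neurons, the principal cells of the striatum, were above the detection filter, and their summed normalized signal was 32850 to 39540 in MM, 32780 to 43800 in MS, 35640 to 46610 in SM and 61120 to 67420 in SS. The sum over 8 cortical glutamatergic markers was 7249 to 8115 in MM, 3897 to 10010 in MS, 6559 to 9727 in SM and 10830 to 15080 in SS. The sum over 11 hypothalamic and preoptic markers ran the other way, at 6702 to 8352 in MM, 6916 to 9362 in MS, 6518 to 7821 in SM and 4308 to 4760 in SS. Of these markers 6 of 11 were called higher in SM against SS and 8 of 11 in MS against SS, beside 6.07% and 8.8% of all probes. Gal (-0.44) and Pomc (-0.10) were below 0 in SM against SS, not called, and Hcrt, Sim1 and Nkx2-1 did not pass the filter. Of the medium spiny neuron markers, 12 of 15 were lower in SM than in SS and 14 of 15 lower in MS than in SS, beside 7.59% and 9.23% of all probes. In MM against MS and in MM against SM 0 of 15 were called, where only 1.13% and 1.28% of all probes were called. Of the 8 cortical markers, 2 (Fezf2 and Nrgn) were called lower in SM against SS and 4 in MS against SS. None was called higher in either. Ccn3 (0.03) and Rorb (0.04) were above 0 in SM against SS, not called. Neurod2, Emx1, Rorb, Neurod6 and Slc17a7 were detected on 4, 6, 9, 13 and 14 arrays, so the cortical sum says little about them. MM arrays stood apart by choroid plexus signal, with a sum over Ttr and F5 of 406.8 to 9068 against 17.81 to 25.5 in MS, while Kl, Folr1, Kcnj13 and Clic6 did not pass the filter. Oligodendrocyte markers were lower in SM than in SS in 7 of 9 and endothelial markers in 3 of 5, beside 7.59% of all probes. No more than 1 of 6 astrocyte markers each way and 0 of 8 microglia markers were called in SM against SS. The astrocyte marker called lower was Gfap, at -1.62 (limma adjusted p 3.62e-09), and the one called higher was Slc1a3, at 0.36 (limma adjusted p 0.0119). In MS against SS they were -1.25 and 0.40 (limma adjusted p 9.45e-08 and 0.00314). In MM against MS, 1 oligodendrocyte marker was lower and no marker of these other 3 cell types was called. Of the midbrain dopamine neuron markers only Th passed, and Slc6a3, Slc18a2, Ddc, Pitx3 and Foxa1 did not. The part of these differences in the results below was not tested, and in bulk tissue fewer cells of a type and less RNA per cell cannot be told apart. Between 49.36% and 53.85% of probes were detected per array, and the median intensity before normalization was 12.7 to 17.1 in MM, 12.8 to 16.4 in MS, 11.4 to 23 in SM and 10 to 17.1 in SS, with a Spearman correlation between arrays of 0.948 to 0.977. Samples 1 (SS), 3 (MS) and 11 (SM) had array weights under 0.5, meaning that their probes scattered most.

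After the METH challenge 3 members were higher than in saline-challenged rats whichever pretreatment was given, but they were not the same 3. In MM against MS, Nr4a2, Nr4a3 and Egr4 were higher, where 0.656% of the 12956 probes tested were called higher and 0.471% lower. In SM against SS, Nr4a3, Egr2 and Egr4 were higher, where 6.07% of probes were called higher and 7.59% lower. A probe was called at an adjusted p under 0.05 (limma, Benjamini-Hochberg over all probes tested). In the test of the difference between the 2 challenge effects, which called 4.16% of probes higher and 3.51% lower, Nr4a2 was the member called. The median log2 difference over all tested probes was within 0.01 of 0 in each comparison, which quantile normalization largely sets.

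**Figure D1:**
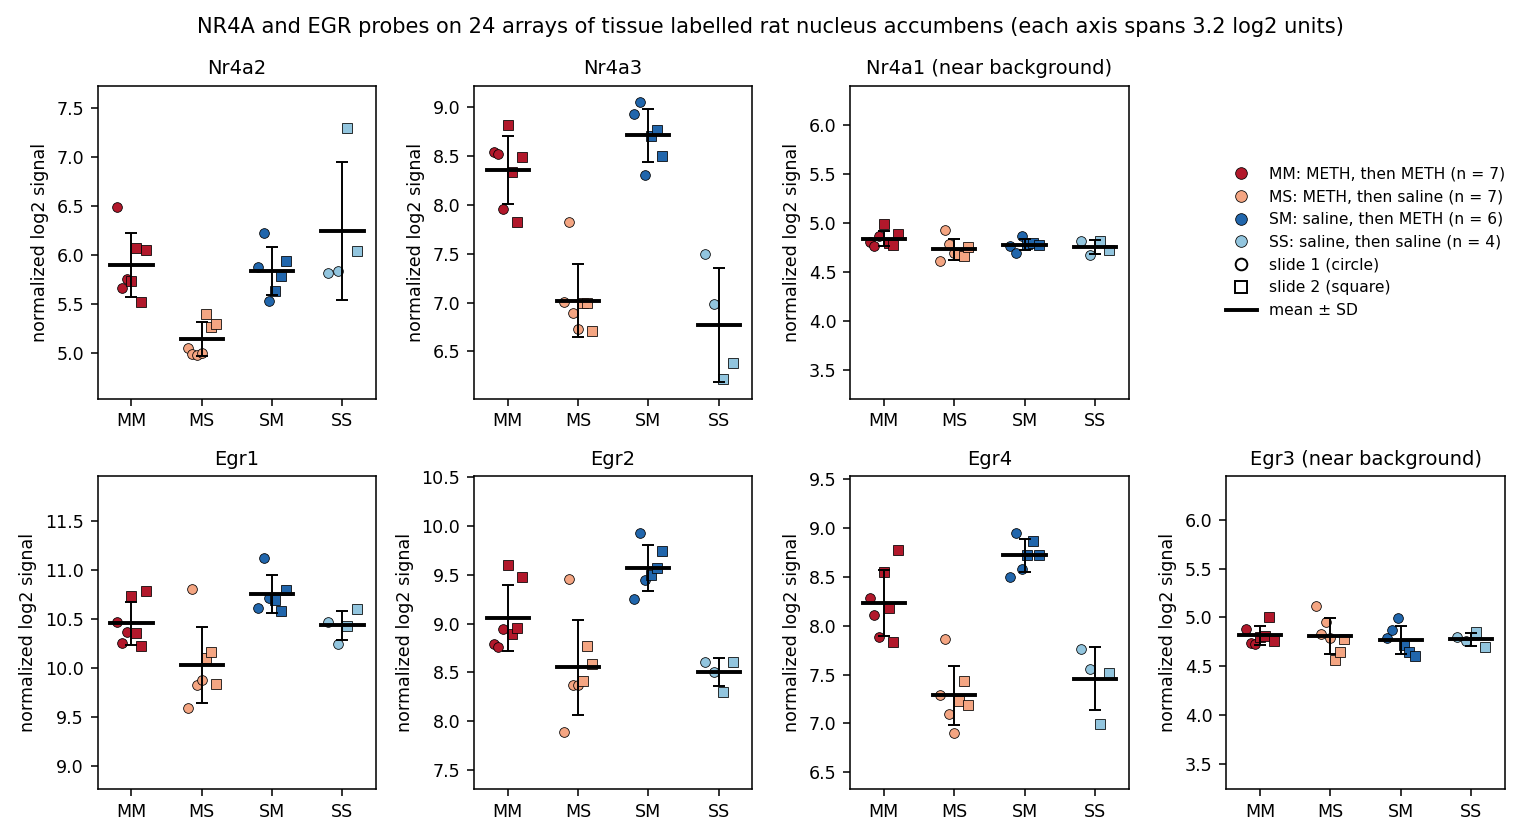
Normalized log2 signal (y axis, spanning the same range in every panel) of each NR4A and EGR probe in each of 24 arrays by group (x axis), with group mean ± SD and the slide as the point shape. Nr4a3 and Egr4 were high in MM and SM, Nr4a2 was lowest in MS and highest in 1 SS array, and Nr4a1 and Egr3 lay near background in all 4 groups.

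Nr4a3, an NR4A receptor also called NOR-1, showed the largest challenge effect of the 5 tested members in both pretreatments. Its normalized log2 signal was 7.83, 8.49 and 8.81 in MM (lowest, median and highest array) and 6.70, 6.99 and 7.82 in MS. It was 8.31, 8.74 and 9.05 in SM, and 7.50, 6.98, 6.22 and 6.38 in the 4 SS arrays (samples 1, 8, 15 and 20, in this order for each member). All 6 SM arrays lay above every SS array, whereas the lowest MM array and the highest MS array (sample 7) almost touched. The log2 difference was 1.33 (SE 0.19, 2.52-fold) in MM against MS, with a limma adjusted p of 4.10e-04 and place 4 of all probes by p. It was 1.94 (SE 0.22, 3.84-fold) in SM against SS, with a limma adjusted p of 8.56e-07. The exact permutation p (two-sided) was the smallest possible in both, 5.83e-04 with 7 against 7 arrays and 0.00476 with 6 against 4. The effect was 0.61 smaller on the log2 scale in METH-pretreated rats (95% interval -1.21 to -0.01), which did not pass the correction (limma unadjusted p 0.0462, adjusted p 0.224). Without sample 1, the highest SS array, the difference of the effects was -0.85 and passed (limma adjusted p 0.0460), and it was -0.93 without samples 1, 3 and 11 (limma adjusted p 0.0265). Within slides, the difference was 1.23 on slide 1 and 1.47 on slide 2 in MM against MS, and 1.52 and 2.36 in SM against SS. The call in MM against MS was lost on slide 1 alone (limma adjusted p 0.364) and with the series matrix values (1.43, 0.0785).

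Egr4, a zinc-finger factor of the EGR family, was also higher after METH in both pretreatments. Its normalized log2 signal was 7.83, 8.18 and 8.77 in MM (lowest, median, highest), against 6.91, 7.23 and 7.86 in MS. It was 8.50, 8.72 and 8.95 in SM, against 7.76, 7.55, 7.00 and 7.52 in the SS arrays. All 6 SM arrays were above every SS array, and 6 of 7 MM arrays were above every MS array. The log2 difference was 0.94 (SE 0.14, 1.92-fold, limma adjusted p 7.67e-04) in MM against MS and 1.27 (SE 0.17, 2.40-fold, limma adjusted p 1.04e-05) in SM against SS. The effects differed by -0.32 (95% interval -0.78 to 0.14, limma adjusted p 0.445). Within slides, MM against MS was 0.80 on slide 1 and 1.05 on slide 2, and SM against SS was 1.02 and 1.51. On slide 1 alone neither was called (limma adjusted p 0.440 and 0.0575), and MM against MS was not called with the series matrix values (1.00, 0.0803).

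Egr2, also known as Krox20, was called after saline pretreatment and not after METH pretreatment, but the difference between these effects was not called. Its normalized log2 signal was 8.76, 8.94 and 9.60 in MM and 7.89, 8.42 and 9.46 in MS. It was 9.25, 9.53 and 9.92 in SM, against 8.61, 8.50, 8.30 and 8.61 in the SS arrays. The SM and SS arrays did not overlap, whereas 2 of 7 MM arrays were above the highest MS array, sample 7. The log2 difference was 0.51 (SE 0.17) in MM against MS (limma adjusted p 0.156) and 1.07 (SE 0.20, 2.10-fold) in SM against SS (limma adjusted p 6.01e-04). The effects differed by -0.56 (95% interval -1.11 to -0.02), with a limma unadjusted p of 0.0427 and an adjusted p of 0.214. Without sample 7 the difference in MM against MS was 0.66 and was called (limma adjusted p 0.0186). Within slides, MM against MS was 0.31 on slide 1 and 0.64 on slide 2, and SM against SS was 0.99 and 1.15, not called on slide 1 alone (limma adjusted p 0.230).

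Egr1, a zinc-finger factor also called Zif268, was not called in either pretreatment. Its normalized log2 signal was 10.22, 10.37 and 10.78 in MM and 9.59, 9.88 and 10.80 in MS. It was 10.59, 10.70 and 11.12 in SM, and 10.47, 10.24, 10.43 and 10.60 in the SS arrays. No MM array was above the highest MS array, again sample 7, while 5 of 6 SM arrays were above every SS array. The log2 difference was 0.43 (SE 0.13, limma adjusted p 0.130) in MM against MS and 0.32 (SE 0.16, limma adjusted p 0.214) in SM against SS. The exact permutation p was 0.0309 and 0.0143 for these comparisons. The effects differed by 0.11 (95% interval -0.32 to 0.54). Without sample 7 the difference in MM against MS was 0.56, with a limma adjusted p of 0.00907. Within slides, MM against MS was 0.34 on slide 1 and 0.49 on slide 2, and SM against SS was 0.46 and 0.18.

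Nr4a2, also called Nurr1, was the exception among the members: it was higher in MM than in MS and not higher in SM than in SS. Nr4a2 was not called in MM against SM (0.06, limma adjusted p 0.909) and was lower in MS than in SS (-1.11, limma adjusted p 2.78e-04). Its normalized log2 signal was 5.52, 5.75 and 6.49 in MM, against 4.97, 5.05 and 5.39 in MS. It was 5.53, 5.83 and 6.23 in SM, against 5.82, 5.83, 7.30 and 6.05 in the SS arrays. All 7 MM arrays were above every MS array, and the SM and SS arrays overlapped. The log2 difference was 0.76 (SE 0.18, 1.69-fold, limma adjusted p 0.0262) in MM against MS and -0.42 (SE 0.21, limma adjusted p 0.215) in SM against SS. The exact permutation p was 5.83e-04 and 0.190. The effects differed by 1.18 (95% interval 0.61 to 1.74, limma adjusted p 0.00758). The difference of the effects was called when any 1 array was left out, at 0.83 to 1.32 (limma adjusted p 0.00367 to 0.0142), with the lowest value without SS sample 15. It was also called on slide 2 alone (1.41, limma adjusted p 0.0215), but not on slide 1 alone (0.91, 0.313) or with the series matrix values (1.47, 0.112). Without sample 15 SM against SS was -0.07.

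The call of Nr4a2 in MM against MS was lost on leaving out MM sample 4 (0.66, limma adjusted p 0.0738), 18 (0.73, 0.0682) or 24 (0.73, 0.0542), or MS sample 7 (0.73, 0.0532), 9 (0.73, 0.0604) or 12 (0.74, 0.0576). It was 0.96 on slide 1 alone and 0.53 on slide 2 alone, not called on either. SM against SS was 0.05 on slide 1, not called, and -0.89 on slide 2, where it was called lower (limma adjusted p 0.0271). Nr4a2 was dim, at 29.5 to 74.7 intensity units in MM and 13.9 to 29.4 in MS, so that the offset of 16 added to every intensity compressed its fold. The ratio of mean intensities was 2.34 in MM over MS.

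**Figure D2:**
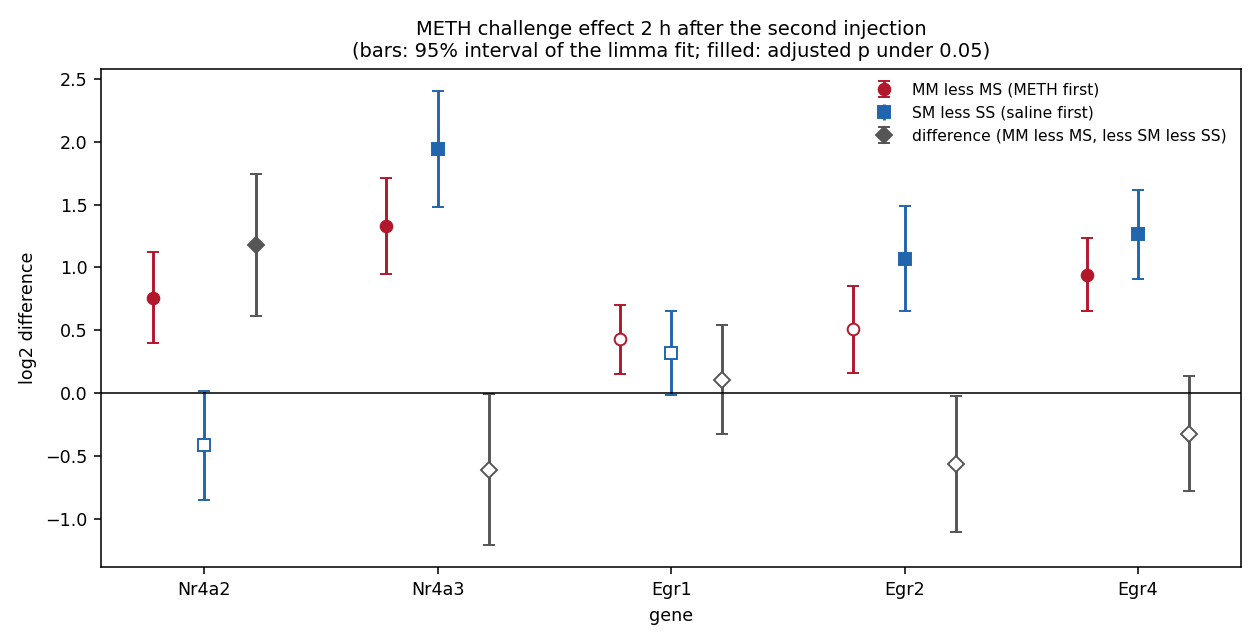
Log2 difference (y axis) of each tested member (x axis) for MM less MS, SM less SS and the difference between them, with 95% intervals of the limma fit and filled symbols where the adjusted p was under 0.05. Nr4a2 is the member whose 2 challenge effects lie on opposite sides of 0 (0.76 and -0.42), and the intervals of Nr4a3, Egr2 and Egr4 lie above 0 in both.

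The pretreatment itself was compared in rats that received saline at the second injection. In MS against SS 8.8% of probes were called higher and 9.23% lower, and Nr4a2 was the single member called. It was lower in MS by a log2 difference of -1.11 (SE 0.21, 0.463-fold, limma adjusted p 2.78e-04), and all 7 MS arrays were below every SS array. Without SS sample 15 the difference was -0.76 (limma adjusted p 0.00125). On slide 1 alone it was -0.82 and was not called (limma adjusted p 0.0558), and on slide 2 alone it was -1.36 (limma adjusted p 0.00244). Egr1 was -0.41 (limma adjusted p 0.0753), and -0.54 without MS sample 7 (limma adjusted p 0.00286). Nr4a3 was 0.25, Egr2 0.05 and Egr4 -0.17, none called (limma adjusted p 0.489, 0.900 and 0.549). SM against SS and MS against SS share the 4 SS arrays, and MM against MS and MS against SS share the 7 MS arrays. The low MS values and the high SS values of Nr4a2 therefore enter more than 1 comparison. The cortical marker sum and the sum over the claustrum genes Ntng2 and Lxn moved in the same direction. The claustrum sum was 75.31 to 211.1 in MS against 297.2 to 550.2 in SS, highest in SS sample 15. In MM this sum was 217.7 to 255.1, above every MS array as for Nr4a2, and in SM it was 136.6 to 235.3. Of its genes, Lxn was called lower in MS against SS (-1.25, limma adjusted p 2.56e-05). Ntng2, detected on 4 of 24 arrays, was not called (-0.23, limma adjusted p 0.0519), and Gnb4 did not pass the filter. Of the cortical markers 4 of 8 were called lower in MS against SS. In the difference of the challenge effects Lxn was called higher (1.58, limma adjusted p 2.22e-04) and Ntng2 was not (0.21). There 3 of 8 cortical markers were called higher and 0 lower, beside 4.16% and 3.51% of all probes. Neither Lxn (0.48, limma adjusted p 0.165) nor any cortical marker was called in MM against MS. The part of these markers in the Nr4a2 results was not tested.

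Between rats that received METH at the second injection, 0.641% of probes were called higher and 0.641% lower in MM than in SM, and none of the 5 members. Egr4 was -0.49 (SE 0.15, limma unadjusted p 0.00272, adjusted p 0.0904) and Egr2 was -0.51 (SE 0.18, limma unadjusted p 0.00703, adjusted p 0.136). Nr4a3 was -0.36 and Egr1 -0.30 (limma adjusted p 0.365 and 0.289), and Nr4a2 was 0.06 (limma adjusted p 0.909). With array weights in the fit Egr2 and Egr4 were called lower (limma adjusted p 0.0332 and 0.0246), and Egr4 also without MM sample 24 (limma adjusted p 0.0472). For Egr1, Egr2 and Egr4 5 of 7 MM arrays were below every SM array. An interval for a member not called spans changes in size: that of Nr4a3 ran from -0.75 to 0.04 and that of Nr4a2 from -0.31 to 0.44.

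The order of the group means differed between members. Nr4a3 averaged 8.35 ± 0.35 in MM, 7.02 ± 0.37 in MS, 8.71 ± 0.27 in SM and 6.77 ± 0.58 in SS (SD over 7, 7, 6 and 4 arrays). The METH-challenged groups were above the saline-challenged groups for Nr4a3, Egr2 and Egr4, and within each of these pairs (MM against SM, MS against SS) the difference between neighbours in the order was not called. Egr1 averaged 10.45 ± 0.22 in MM, 10.03 ± 0.39 in MS, 10.75 ± 0.20 in SM and 10.43 ± 0.15 in SS, with MM and SS next to each other. Nr4a2 averaged 5.90 ± 0.33 in MM, 5.14 ± 0.17 in MS, 5.83 ± 0.25 in SM and 6.25 ± 0.71 in SS. Its MM, SM and SS arrays overlapped, and MS stood below the other 3 groups. Brightness is not comparable between probes, so no member's level was set against another's.

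Nr4a1 (Nur77) and Egr3 were at or near background. Nr4a1 was detected on 2 of 24 arrays, 1 of MM and 1 of MS, with intensities of 8.4 to 17.5 in MM, 3.4 to 13.9 in MS, 5.7 to 12.9 in SM and 4.6 to 11.4 in SS. Egr3 was detected on 3 arrays, 1 of MM and 2 of MS, with intensities of 7.3 to 14.8 in MM, 1.7 to 20.6 in MS, 3.2 to 14.3 in SM and 4.3 to 11.0 in SS. Both are well-known striatal immediate early genes, and these values say only that their probes were not well above background. No fold is given for either. With no filter, neither was called in any of the 5 comparisons (limma adjusted p 0.367 to 0.990).

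Arrays of 1 group also differed from each other in these genes, and Egr4 moved together with Egr1, Egr2 and Nr4a3. The mean of its group was taken from each array's log2 value, and the 24 deviations were compared in all 10 pairs of tested members. Egr1 and Egr2 had the highest correlation (Pearson r 0.89, Spearman rho 0.68, permutation p within groups 3.00e-05 and 0.00122, adjusted over the 10 pairs 3.00e-04 and 0.00407). Nr4a3 and Egr4 followed (r 0.78, rho 0.71, permutation p 7.00e-05 and 2.30e-04, adjusted 3.50e-04 and 0.00230). Egr4 correlated with Egr2 (r 0.72, rho 0.71) and with Egr1 (r 0.69, rho 0.61), with an adjusted permutation p of 0.00180 for each r, and of 0.00240 and 0.00950 for rho. Among 12955 other probes Egr2 ranked 1 for likeness to Egr1, and Egr1 ranked 2 for likeness to Egr2, after Arc. Leaving out the 2 arrays whose deviations of the first gene lay farthest from the median deviation, r was 0.81 for Egr1 with Egr2 (without samples 7 and 5) and 0.69 for Nr4a3 with Egr4 (without samples 7 and 1). Within slides, r was 0.95 and 0.76 for Egr1 with Egr2, and 0.88 and 0.81 for Nr4a3 with Egr4. Nr4a3 with Egr1 or Egr2 (r 0.51 and 0.49) did not hold by rank (rho 0.33 and 0.27, adjusted permutation p 0.216 and 0.307) and fell to 0.31 and 0.28 without samples 7 and 1.

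For Nr4a3, Egr1, Egr2 and Egr4, 5 of 24 arrays were above their group means for all 4 genes and 8 below for all 4. MS sample 7 was above its group mean by 0.80 for Nr4a3, 0.78 for Egr1, 0.91 for Egr2 and 0.58 for Egr4, and below it for Nr4a2 (-0.15). The others above for all 4 were SM sample 5, MM samples 13 and 24 and SS sample 1. Nr4a2 stood apart from the other 4 members, with correlations between -0.18 and 0.17 (adjusted permutation p 0.463 to 0.650). SS sample 15, 1.05 above its group mean for Nr4a2, was below it for the other 4 members.

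**Figure D3:**
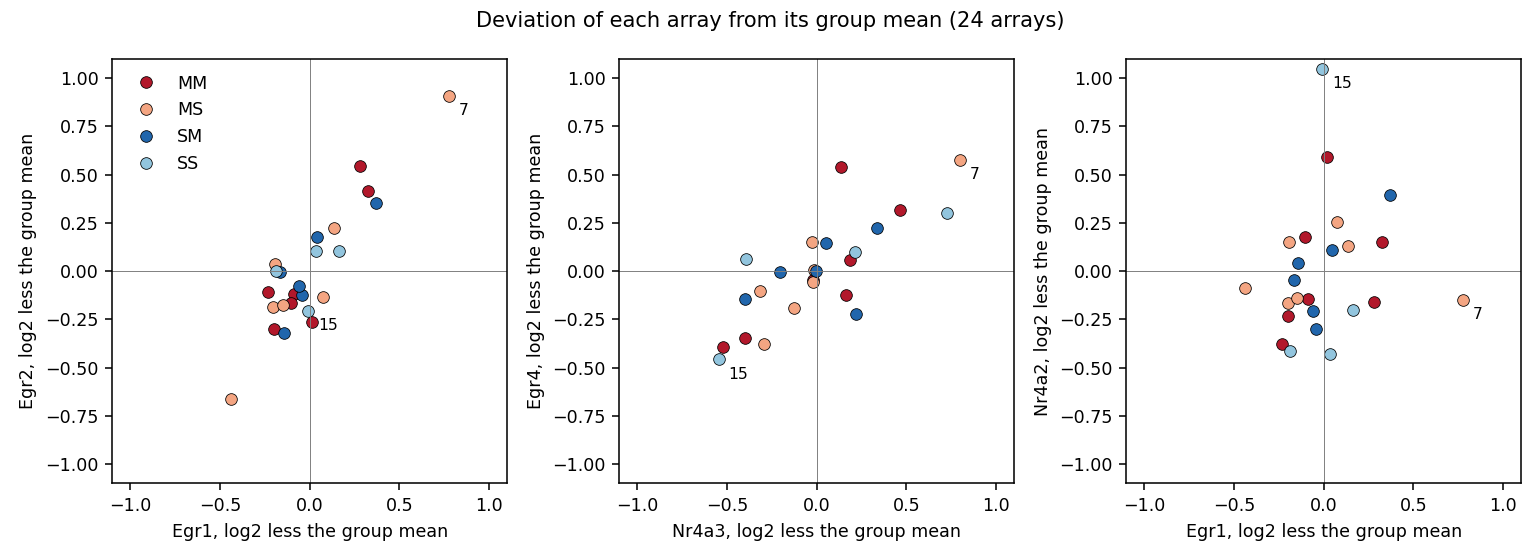
Deviation of each of 24 arrays from its group mean, in log2 units on both axes, for Egr1 and Egr2 (left), Nr4a3 and Egr4 (middle) and Egr1 and Nr4a2 (right), coloured by group. MS sample 7 is high on Egr1, Egr2, Nr4a3 and Egr4, and SS sample 15 is high on Nr4a2 alone.

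The genes whose deviations were most like those of each member, among genes with 1 symbol that are not members, were shared by Egr1, Egr2 and Egr4 in part and not by Nr4a3 or Nr4a2. Arc, a synaptic immediate early gene, was the closest to Egr1 (r 0.86), Egr2 (r 0.90) and Egr4 (r 0.80), and Junb, an AP-1 subunit, was in place 3 for each (r 0.81, 0.78 and 0.79). Asb2 was second for Egr1 (r 0.81), the mitochondrial carrier Slc25a25 second for Egr2 (r 0.82) and the clock gene Per1 second for Egr4 (r 0.80). Nr4a3 was closest to the integrin Itgb6 (r 0.85), the G protein signalling regulator Rgs2 (r 0.78) and the cytokine Tnfsf10 (r 0.78). Nr4a2 was closest to Bdnf (r 0.85), which encodes a neurotrophin, Ccn3 (r 0.81), which is on the cortical marker list, and the neuropeptide gene Cck (r 0.81). These correlations are descriptions over 24 arrays that share their normalization.

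Other immediate early transcription factors gave the setting for the members. Of 13 tested on a list of AP-1 subunits, KLF factors and related genes, 7 were higher and 0 lower in MM against MS (median log2 difference 0.43), and 4 were higher and 2 lower in SM against SS (median 0.19). Of all probes, 0.656% were called higher and 0.471% lower in MM against MS, and 6.07% and 7.59% in SM against SS. Fos, the AP-1 subunit, was higher by 1.74 in MM against MS (limma adjusted p 2.42e-07, the smallest of all probes) and by 1.71 in SM against SS (limma adjusted p 3.99e-07). Junb was higher by 0.77 and by 1.20 (limma adjusted p 0.00418 and 1.65e-05). Nfil3 (0.94), the cAMP-responsive modulator Crem (0.73) and Klf6 (0.43) were higher in MM against MS (limma adjusted p 0.00112, 0.00224 and 0.00390). In SM against SS Klf4 was higher by 0.69 and Ier2 lower, at -0.55 (limma adjusted p 0.00154 and 0.00403). The Crem effects differed between pretreatments by 0.84 (limma adjusted p 0.00623), as did those of Klf10 by 1.12 and Ier2 by 0.88 (limma adjusted p 3.49e-04 and 0.00119). In that test 4 of the 13 were called higher and 0 lower, beside 4.16% and 3.51% of all probes. Crem (-0.55), Klf10 (-1.41) and Ier2 (-0.74) were also called lower in MS against SS (limma adjusted p 0.00767, 4.75e-08 and 9.34e-05). None of them was called in MM against SM, so the SS and MS levels enter these differences. Klf10 was chosen after its values were seen.

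Of 17 tested activity-induced effectors, 7 were higher and 0 lower in MM against MS (median 0.31), against 4 higher and 2 lower in SM against SS (median 0.16). The shares of all probes called higher and lower were 0.656% and 0.471% in MM against MS, and 6.07% and 7.59% in SM against SS. Arc was higher by 1.03 and by 0.72 (limma adjusted p 0.00399 and 0.0297). The MAP kinase phosphatase Dusp1 (0.93), Errfi1 (0.42) and the kinase Sik1 (0.57) were higher in MM against MS (limma adjusted p 4.59e-04, 0.00326 and 0.00399). In SM against SS, Dusp5 was higher by 0.62, and Vgf, a neuropeptide precursor, and Gadd45b were lower at -0.83 and -0.53 (limma adjusted p 0.00525, 1.92e-05 and 0.0104). In MS against SS 11 of the 17 were lower and 0 higher (median -0.45), beside 9.23% and 8.8% of all probes. Bdnf was -0.63 in MS against SS (limma adjusted p 0.0143). The median over all tested probes was within 0.01 of 0, but quantile normalization largely sets it there. With the unscaled series matrix values the all-probe median was 0.25 in SM against SS and -0.007 in MM against MS.

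**Figure D4:**
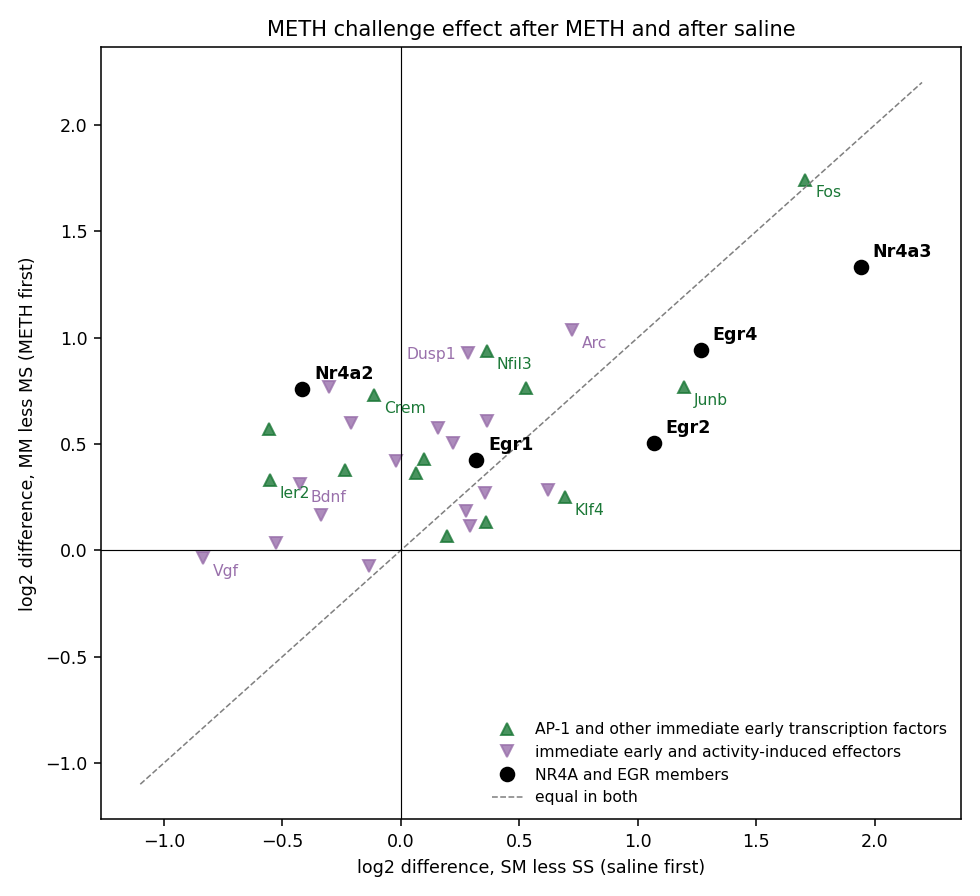
Log2 difference MM less MS (y axis) against SM less SS (x axis) for the 5 tested members and the tested genes of the 2 immediate early lists, with a dashed line of equal effects. Fos lies near the line (1.74 and 1.71), Nr4a3, Egr4, Egr2 and Junb lie below it, and Nr4a2 lies above it with Crem and Dusp1.

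None of the tested genes that act before or with the members was called in MM against MS. Only 1.13% of all probes were called there, so 0 calls in lists this short say little. Of 8 tested genes on the list of upstream regulators, 0 were called in MM against MS. The list includes CREB, SRF and their kinases and coactivators, and the smallest p values were for Atf1 (0.23), Srf (0.14), Crtc2 (0.06) and Rps6ka5 (0.06). The 8 also include Kcnh8, a potassium channel gene and no known regulator of the members, taken in through a shared synonym. Kcnh8 was 0.04 in MM against MS and 0.05 in SM against SS. In SM against SS 1 of the 8 was lower, Camk4 at -0.64 (limma adjusted p 6.38e-04), which was also lower in MS against SS (-0.97). Atf1 was 0.33, Rps6ka5 0.21 and Creb1 -0.15 in SM against SS, not called. Of 6 tested corepressors and dimer partners, 0 were called in MM against MS, where Rxrg was -0.15, Rxra 0.04, Nab2 -0.02 and Rxrb 0.02. In SM against SS 1 was lower, Rxrg at -0.87 (limma adjusted p 7.59e-07), a retinoid X receptor that is also on the medium spiny neuron list. Rxrb was -0.27, Nab1, an EGR corepressor, -0.44, and Rxra -0.04, not called. Of 12 tested dopamine receptor and cAMP signalling genes, 0 were called in MM against MS, where Ptpn5 was -0.19, Prkar1a 0.15, Pde1b -0.15 and Pde10a 0.14. In SM against SS 7 were lower and 1 higher, beside 7.59% and 6.07% of all probes, with Pde10a at -0.78, Drd2 at -0.60, Ppp1r1b at -0.56 and Adcy5 at -0.72 (limma adjusted p 4.81e-05, 5.86e-05, 1.18e-04 and 5.26e-04). Of the 7 lower genes 4 (Drd1, Drd2, Ppp1r1b and Pde10a) are also on the medium spiny neuron list, so the fall of both lists is in part the same probes, and 3 (Adcy5, Pde1b and Ptpn5) are not. The part of tissue makeup in this was not tested.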

How the data were processed

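The deposited intensity values were made by the authors with BeadStudio (version not given in the sources used here). They are linear, background-subtracted per array (lowest value -21) with no scaling across arrays. Detection p-values were deposited as scores of 1 minus p whose order does not follow the intensities (Spearman correlation -0.00699 to 2.47e-04 per array), so they were paired with the intensities by rank within each array. The authors' deposited log2 series matrix equals log2 intensity, floored at 1, less each probe's median (largest difference 2.32e-06). It served as an alternative.

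The analysis was run in R 4.3.3. In limma 3.58.1, neqc was applied with an offset of 16, quantile normalization on the log2 scale, and a filter of detection p under 0.05 on at least 4 of 24 arrays, which kept 12956 of 22523 probes. A linear model with 1 mean per group was fitted to all arrays with empirical Bayes moderation, and p-values were adjusted by Benjamini-Hochberg over all tested probes. Intervals are 95%. Single values were also compared by two-sided exact permutation of arrays, and pairs of members by 99999 permutations within groups. The number of arrays limits the precision. The pipeline was tested on simulated data. Groups and the 2 slides come from the deposited labels, and samples carry the labels' numbers, which run over all groups.

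Gene symbols came from the platform annotation, which names 13793 probes, updated through RefSeq synonyms for the lists. Promoter windows came from RefSeq (GRCr8). The members, the gene lists and the marker lists were chosen with earlier results of these data known, and the lists were given no test. The genes named are the members, the 4 genes of each list with the smallest p in each challenge comparison and the 3 genes most like each member. Figures were drawn with matplotlib 3.10.9 under Python 3.11.15. The alternatives tried are given with their effect in the closing section.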

Additional observations from a re-analysis of the deposited data

Results flagged for a closer look

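In Nr4a2, SS sample 15 stood far from the other 3 SS arrays. Its normalized log2 signal was 7.30 (127.8 intensity units), and its gap to the next array was 0.847 of the group's range. The same array had the highest sum over the claustrum genes Ntng2 and Lxn of all 24 arrays (550.2). In Nr4a3, MS sample 7 stood above the other 6 MS arrays at 7.82 (212.5 intensity units), with a gap of 0.733 of the group's range. These are 2 of 20 combinations of tested member and group, and chance alone gives about 1 in 20.

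The challenge effect on Nr4a2 differed between pretreatments, with MM against MS exceeding SM against SS by 1.18 on the log2 scale (SE 0.27, limma adjusted p 0.00758). All 7 MM arrays were above every MS array, and 3 of 6 SM arrays were below every SS array.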

How the results depend on the processing

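Over 680 values of the 5 tested members under the alternatives, 640 kept their direction and their side of the threshold, 21 lost a call, 9 gained one and 10 turned direction, none of them called before or after. The cause was not tested for any. Nr4a3 was called in SM against SS under every alternative run (log2 difference 1.52 to 2.40), and in MM against MS Nr4a3 and Egr4 were called in 25 of 27. Turned were Nr4a2 in SM against SS (0.053, slide 1 alone) and in MM against SM (-0.013 with the series matrix values, -0.035 to 0.14 on leaving out 1 array, lowest without MM sample 4), Egr1 in the difference of the challenge effects (-0.080 with the series matrix values, -0.12 on slide 1 alone), and, in MS against SS, Nr4a3 (-0.13, slide 1), Egr4 (0.024, slide 2) and Egr2 (-0.032 on slide 1, and -0.10 to 0.16 on leaving out 1 array, below 0 without MS sample 7 and, at -0.019, without SS sample 15).

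On slide 1 alone the members called numbered 1 in SM against SS and 0 in MM against MS, in the difference and in MS against SS. With the series matrix values they numbered 0 in MM against MS and 0 in the difference, where Nr4a2 was 1.21 and 1.47 (limma adjusted p 0.108 and 0.112). On slide 2 alone Nr4a2 gained a call in SM against SS (-0.89, limma adjusted p 0.0271). Without samples 1, 3 and 11 the difference called 2 members, and array weights gave 2 in MM against SM. Leaving out 1 array at a time gave 3 to 3 in SM against SS, 2 to 4 in MM against MS, 1 to 2 in the difference, 1 to 2 in MS against SS and 0 to 1 in MM against SM. Nr4a2 in MM against MS also lost its call with an offset of 50 (0.44, limma adjusted p 0.0872), scaling to 1 median per array (0.75, 0.0655) and no filter (0.76, 0.0688).

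The series matrix is not scaled between arrays, and with it the median of all probes was 0.25 in SM against SS and -0.25 in the difference, with 441 probes called higher and 86 lower in SM against SS, beside 787 and 983. Over all probes MM against MS called 85 higher and 61 lower, against 7 and 1 with the series matrix values, 39 and 13 with 1 median per array, 0 and 0 on slide 1, 19 and 13 on slide 2, 155 and 124 with only the arrays compared, 305 and 298 with array weights, and 189 and 161 without samples 1, 3 and 11. Each member had 1 probe, so that no other probe could be tried. No paired analysis was possible because the sample numbers run over all groups and pair no samples. With 2 to 4 arrays per group on a slide, values within a slide limit little, and Nr4a1 and Egr3 could not be measured above background.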
